A study of Mus musculus with 16 samples.

Results

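The 4 class IIa histone deacetylase genes (Hdac4, Hdac5, Hdac7 and Hdac9) and the 4 genes of calcium/calmodulin-dependent protein kinase II (CaMKII; Camk2a, Camk2b, Camk2d and Camk2g) were followed in mouse quadriceps by RNA sequencing. They were taken by symbol from an expression table, where they made up 8 of 23970 gene symbols. The 16 libraries, in 4 groups of 4, came from male C57BL/6NTac mice aged 16 weeks. CON-pre and CON-post mice were on a control (CON) diet, and HFD-pre and HFD-post mice on a high-fat diet (HFD). The pre groups were sampled under basal conditions and the post groups 3 h after 1 bout of treadmill running to exhaustion, from different animals, so no muscle was measured at both times. According to the Methods, acclimatisation to the treadmill and the fast before sampling were the same in all 4 groups. Levels are FPKM, that is, sequenced fragments per length of transcript and per size of library, a scale on which genes can be compared.

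Class IIa HDACs bind MEF2 transcription factors in the nucleus and repress their target genes, and they have little deacetylase activity of their own, working instead through a corepressor complex that contains Hdac3. CaMKII is activated by the calcium that each contraction releases and phosphorylates class IIa HDACs, as do AMP-activated protein kinase, protein kinase D and the salt-inducible kinases; the phosphorylated HDACs are bound by 14-3-3 proteins and leave the nucleus. This regulation acts on the proteins and their location, which RNA levels do not measure.

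Each of the 8 genes was a single entry in the table, and none was listed at 0 in any library. All 8 passed the filter on low values (a mean of 0.5 FPKM or more), which left 11256 symbols for testing. The table holds no read counts; relative depth, read from the steps between the values of low genes, ran from 0.706 to 1.12, so the sequencing error of a single value is not known. All 8 skeletal muscle markers examined (Ckm, Acta1, Myh4 and others) were present in each group, with summed levels from 56609 to 81455 FPKM, and summed FPKM of 7 slow-fibre markers ran from 170 to 700. CON-pre replicate 4 had the highest Hdac5, the lowest Hdac4 and the highest Camk2g of its group, so the values that it moves most are also given without it. This library was picked out by the values of these same genes, so leaving it out is no independent check. In whole muscle, fewer cells of a type and less RNA per cell cannot be told apart.

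Camk2a was the most abundant of the 8 genes and Hdac9 the least. Camk2a, whose locus makes CaMKII alpha and in skeletal muscle also alpha-KAP, an anchoring protein without kinase activity, averaged 99.95 ± 10.5 FPKM (SD, n = 16), a level above 97.2% of the genes tested. A value per gene does not separate the 2 products, so it is not the level of the kinase transcript alone. Camk2g averaged 40.5 ± 1.87 FPKM and Camk2b 33.6 ± 2.10 FPKM, and Camk2g was the higher of this pair in 16 of 16 libraries although their ranges met. Hdac5, at 11.2 ± 1.48 FPKM, and Camk2d, at 11.2 ± 1.15 FPKM, had no fixed order, with Camk2d the higher in 7 of the 8 pre libraries and Hdac5 in 7 of the 8 post libraries. Next came Hdac4 at 6.83 ± 1.40 FPKM, below Camk2d in 15 of 16 libraries, then Hdac7 at 3.74 ± 0.655 FPKM and Hdac9 at 0.870 ± 0.251 FPKM, each below its neighbour in 16 of 16 libraries. Hdac9 was thus near the bottom of the genes tested, above 9.13% of them. The ratio of the highest to the lowest library was smallest for Camk2g (1.21) and Camk2b (1.26) and largest for Hdac4 (1.98) and Hdac9 (2.82).

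**Figure D1:**
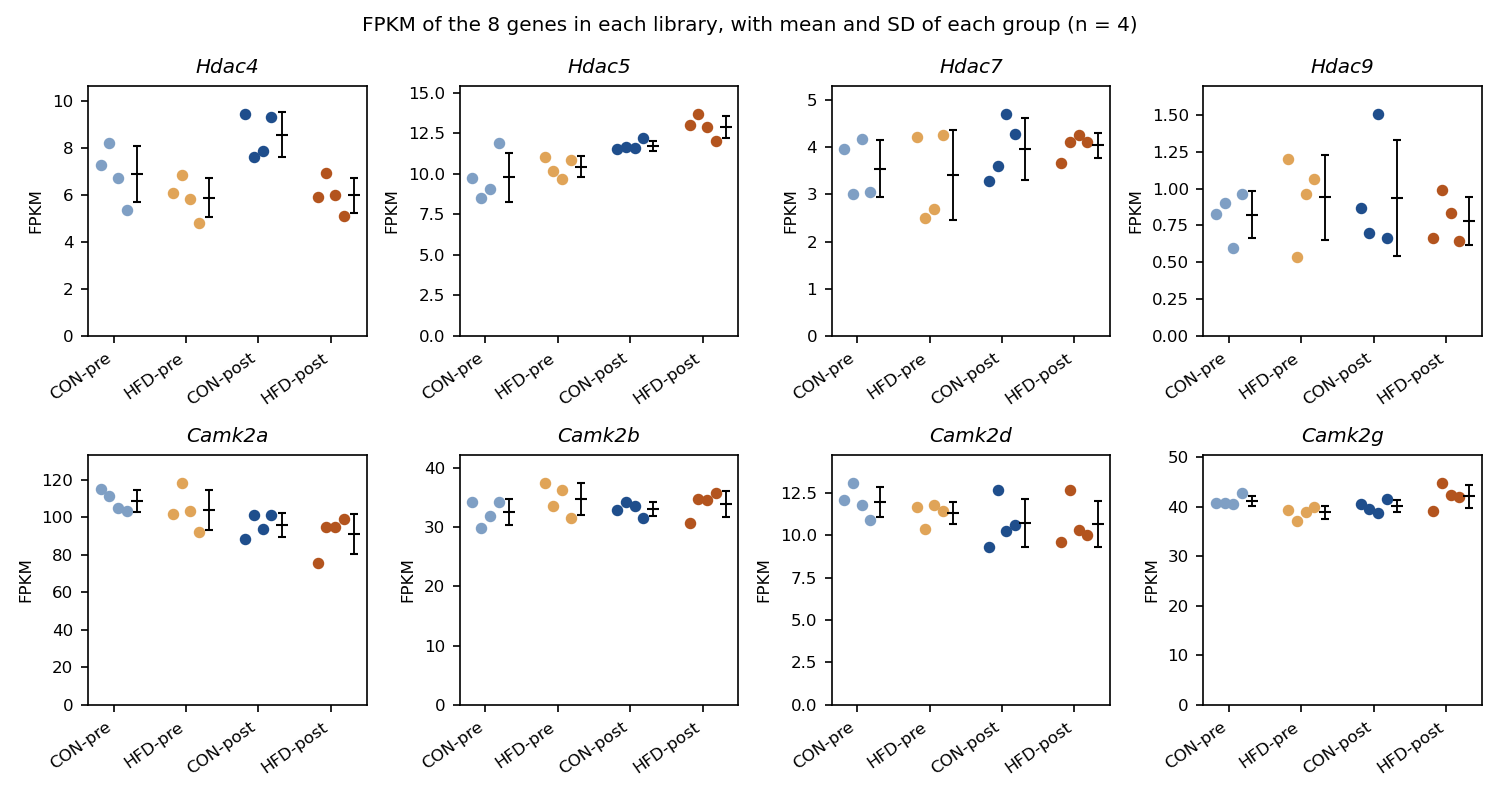
FPKM (vertical axes, each starting at 0) of the 8 genes in the 16 libraries, with 1 point per library in order of replicate number and, to its right, the mean and SD of each group of 4. The post libraries of Hdac5 lie above 7 of the 8 pre libraries, Hdac4 is highest in CON-post, and Camk2b and Camk2g vary little.

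As shares of the summed FPKM of each family, Hdac5 made up 49.5 ± 4.62% of class IIa HDAC transcripts over the 16 libraries, Hdac4 30.1 ± 5.21%, Hdac7 16.5 ± 2.48% and Hdac9 3.85 ± 1.06%. The sum of the 4 HDAC genes averaged 21.0 ± 0.601 FPKM in CON-pre, 20.7 ± 1.44 in HFD-pre, 25.2 ± 1.26 in CON-post and 23.7 ± 1.62 in HFD-post. After exercise Hdac4 was 30.7 to 37.7% of the sum in CON-post and 23.3 to 27.0% in HFD-post, while Hdac5 was 45.1 to 49.4% in CON-post and 53.2 to 56.0% in HFD-post, with no overlap of the groups for either share. The Hdac5 share in HFD-post was also above that in HFD-pre (48.9 to 51.8%) in every library, while in the pre groups both shares overlapped between the diets, and the Hdac4 share averaged 32.8 ± 6.01% in CON-pre and 28.6 ± 4.81% in HFD-pre. The Hdac5 levels themselves overlapped between CON-post (11.5 to 12.2 FPKM) and HFD-post (12.0 to 13.7 FPKM). Shares of 1 sum are not independent of each other, and no test or count over other genes was applied to them.

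The CaMKII genes summed to 185 ± 11.6 FPKM, of which Camk2a was 53.8 ± 2.59%, Camk2g 22.0 ± 1.67%, Camk2b 18.2 ± 1.27% and Camk2d 6.02 ± 0.50%. The sum averaged 194 ± 5.82 FPKM in CON-pre, 189 ± 10.2 in HFD-pre, 180 ± 7.80 in CON-post and 178 ± 15.3 in HFD-post, in each of which Camk2a was the largest part.

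**Figure D2:**
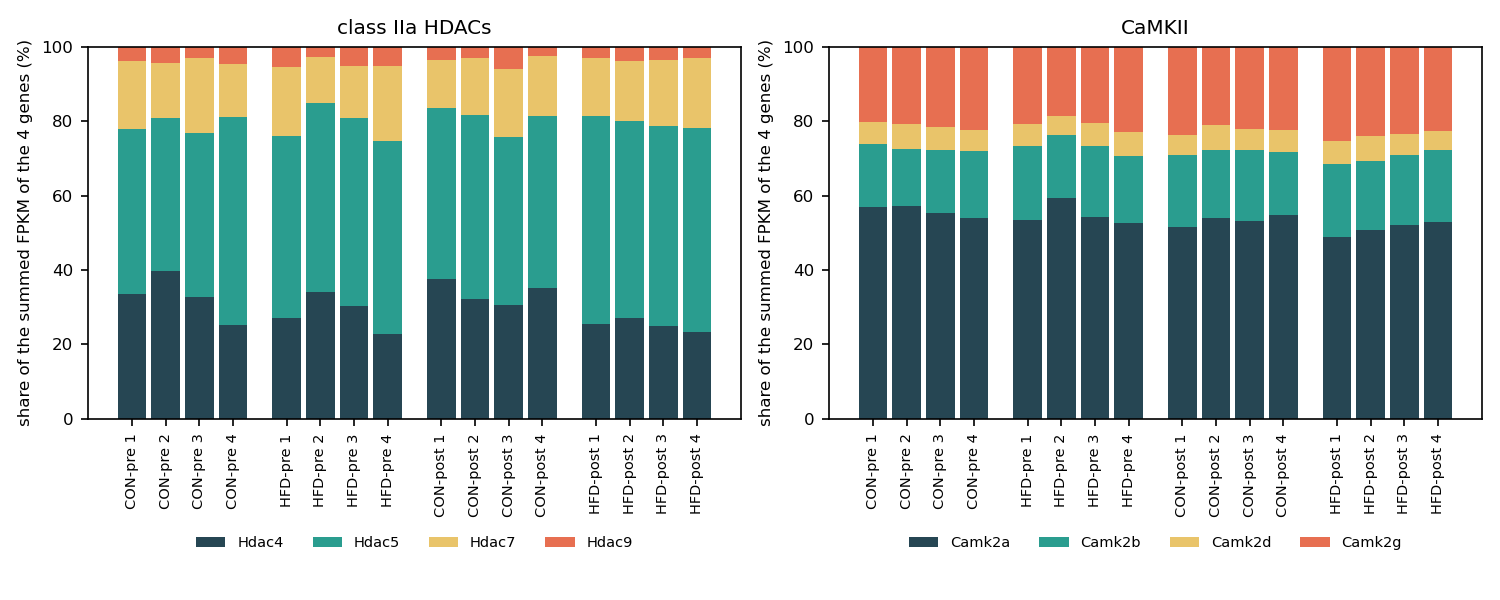
Share (%) of each gene in the summed FPKM of the 4 class IIa HDAC genes (left) and the 4 CaMKII genes (right), 1 bar per library. Hdac5 and Hdac4 made up most of the HDAC sum and Camk2a the largest part of the CaMKII sum, and the Hdac4 part was smaller in every HFD-post library than in every CON-post library.

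The study compared the diets before and after exercise and the response to exercise on each diet. These contrasts were fitted with limma to log2(FPKM + 0.5) over all genes tested, with a gene called at a Benjamini-Hochberg adjusted p under 0.05; because of the added 0.5, fold changes of low genes are understated. The contrasts share groups and are therefore not independent of each other. None of the 8 genes was called between HFD-pre and CON-pre (0.346% of all genes were), between CON-post and CON-pre (1.11%), between HFD-post and HFD-pre (0.542%) or between HFD-post and CON-post (0.151%). An unadjusted limma p under 0.05 was reached by 0, 2, 2 and 1 of the 8 in those contrasts, where it was reached by 8.25%, 11.1%, 11.7% and 6.29% of all genes. Over both diets, post against pre, 1 of the 8 was called, Hdac5, against 3.86% of all genes, and 2 had an unadjusted p under 0.05, against 18.5%. Over both states, HFD against CON, 0 of the 8 were called (0.959% of all genes) and 1 had an unadjusted p under 0.05 (10.4%). The shares of all genes called, and their direction, moved with scaling. Over both diets, 289 of 533 called genes were higher with quantile normalization and 285 of 499 with upper-quartile scaling, against 332 of 435 in the main fit. These shares also moved with single libraries. With 1 left out, 21 to 78 genes were called for HFD-post against HFD-pre in place of 61 (21 when replicate 2 of either group was left out), 5 to 16 for HFD-post against CON-post in place of 17 (5 without CON-post replicate 2), 21 to 44 for HFD-pre against CON-pre in place of 39 (21 without CON-pre replicate 1 or 2) and 246 to 566 over both diets in place of 435 (246 without CON-pre replicate 1). The interaction of diet and exercise gave no call for any gene by limma, with an unadjusted p under 0.05 for 356 genes, 3.16% of those tested and none of the 8, and 1 gene was called when replicate 4 of either post group was left out. The median log2 fold change of the 8 genes was 0.02 for exercise over both diets and -0.02 for diet over both states, against 0.01 and -0.02 for all genes tested.

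**Figure D3:**
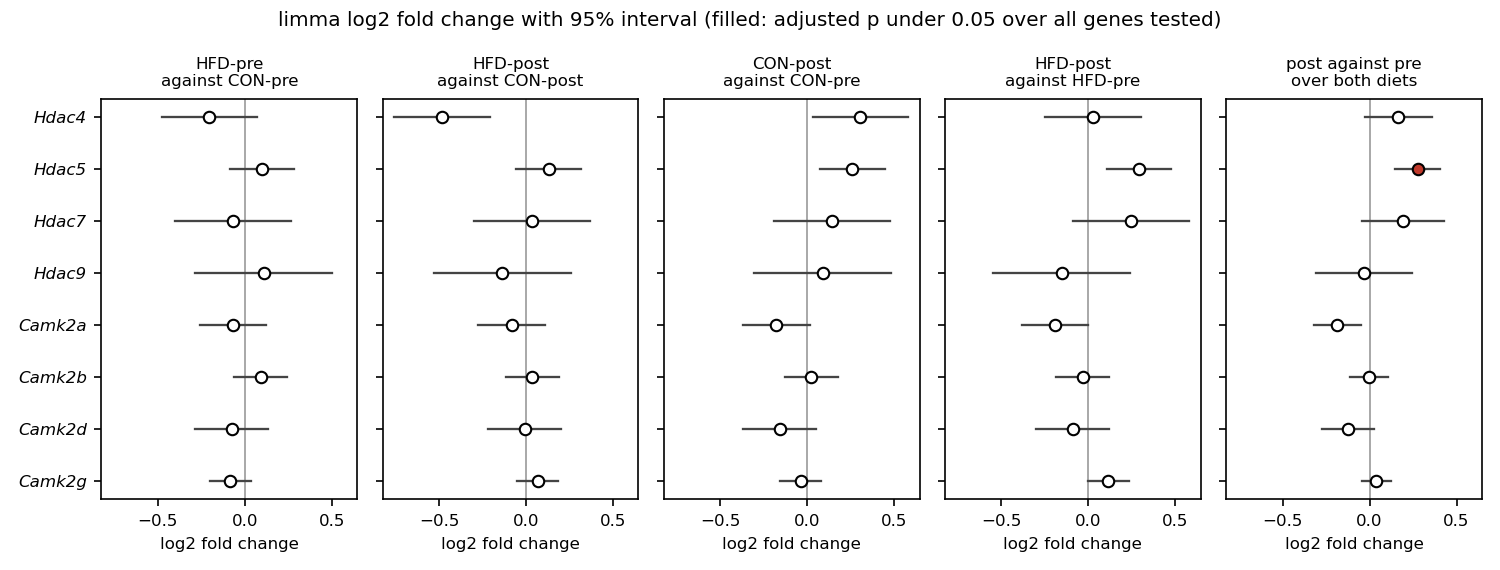
Log2 fold change (horizontal axes) of each gene in 5 contrasts, with its limma 95% interval. The filled point, Hdac5 over both diets at 0.28, is the only one with an adjusted p under 0.05, and the interval of Hdac4 between HFD-post and CON-post runs from -0.76 to -0.21.

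Hdac5, whose protein is known to leave the nucleus of contracting muscle fibres, was the gene of the 8 that rose after exercise. Its levels were 9.72, 8.48, 9.04 and 11.9 FPKM in CON-pre (replicates 1 to 4) and 11.0, 10.2, 9.68 and 10.9 FPKM in HFD-pre. After exercise they were 11.5, 11.6, 11.6 and 12.2 FPKM in CON-post and 13.0, 13.7, 12.9 and 12.0 FPKM in HFD-post. All post libraries were above 7 of the 8 pre libraries, and CON-pre replicate 4, at 11.9 FPKM, was the one pre library inside the post range. The share of all genes with such a split was not counted. Over both diets the log2 fold change was 0.28 (standard error 0.062, 95% interval 0.14 to 0.41), a 1.21-fold rise with a limma adjusted p of 0.0194. Without CON-pre replicate 4 it was 0.32 (limma adjusted p = 0.00127), and over 27 alternatives of processing and sample choice the adjusted p was between 0.00127 and 0.0444.

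Taken by diet, the Hdac5 difference was of like size and was not called. CON-post against CON-pre gave a log2 fold change of 0.26 (95% interval 0.07 to 0.45, limma adjusted p = 0.222) with overlapping groups and a two-sided exact permutation p of 0.114. HFD-post against HFD-pre gave 0.29 (95% interval 0.11 to 0.48, limma adjusted p = 0.183), with every HFD-post library above every HFD-pre library, as for 4.72% of all genes. Its exact permutation p of 0.0286 is the smallest that 4 libraries against 4 can give, and it was 0.229 after adjustment over the 32 exact tests of 8 genes in 4 contrasts. Without CON-pre replicate 4, the library with the highest Hdac5 of its group, the CON contrast passed the threshold (0.35, limma adjusted p = 0.0204). This was the 1 passing setting of 28 alternatives, and without CON-pre replicate 2 the limma adjusted p was 0.497. The difference between the diets in the Hdac5 response was 0.03 on the log2 scale, with a 95% interval of -0.23 to 0.29, and without CON-pre replicate 4 it was -0.06. Diet alone gave a log2 fold change of 0.10 before exercise (limma adjusted p = 0.853; 0.19 without CON-pre replicate 4 and 0.04 without CON-pre replicate 2) and 0.13 after it (limma adjusted p = 0.925).

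Markers of other cell types were counted in the same contrast. Over both diets, 1 of 9 endothelial markers (Pecam1), 1 of 4 smooth muscle markers (Tagln) and 1 of 6 tested Schwann and nerve markers (Prx) were called higher, beside 2.95% of all genes, with an unadjusted p under 0.05 for 4, 3 and 3 markers of these lists, beside 18.5% of all genes. In the remaining lists 0 of 6 adipocyte, 0 of 6 macrophage and 0 of 7 blood markers were called by limma (unadjusted p under 0.05 in 2, 0 and 0). Higher without regard to p were 6 of 6 adipocyte markers (median log2 fold change 0.30), 5 of 6 macrophage (0.08) and 5 of 7 blood markers (0.07). So were 7 of 7 slow-fibre markers (median 0.17, 0 called by limma). Adipocyte sums were 287 to 395 FPKM in the pre groups and 303 to 613 FPKM in the post groups. The summed endothelial markers were 67.3 to 82.8 FPKM in CON-pre, 75.3 to 90.4 in HFD-pre, 75.1 to 102 in CON-post and 80.2 to 91.2 in HFD-post, and no endothelial marker was at 0. Of the neuronal markers, Nefl was listed at 0 in all libraries. Smooth muscle sums were 25.7 to 36.9 FPKM in the pre groups and 31.3 to 45.5 FPKM in the post groups, and Schwann and nerve sums 28.8 to 38.8 FPKM and 32.3 to 46.3 FPKM. The part of these cells in the Hdac5 difference was not tested. With a slow-fibre score as a covariate the Hdac5 log2 fold change was 0.27 (limma adjusted p = 0.0231).

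Upstream sequence is shown for Hdac5, the gene called after exercise, and for Hdac4, the gene with the largest difference between diets. Both are the 250 bases before an annotated start of transcription, from RefSeq (GRCm38.p6), written 5′ to 3′ on the strand of the gene. Hdac5 lies on chromosome 11 (102195747 to 102230172, minus strand) and its stretch is chr11:102230173-102230422. Capitals mark a MEF2 box, the sequence that MEF2 factors bind, and a GC box (GGGCGG, here read on the other strand).
Hdac5: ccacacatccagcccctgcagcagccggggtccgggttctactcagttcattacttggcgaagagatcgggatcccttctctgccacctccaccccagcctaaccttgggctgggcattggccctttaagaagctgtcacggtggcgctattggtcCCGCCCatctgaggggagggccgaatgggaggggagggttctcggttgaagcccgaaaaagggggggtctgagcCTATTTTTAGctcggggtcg
Hdac4 lies on chromosome 1 (91928779 to 92195702, minus strand), and its stretch, chr1:92180342-92180591, is inside the annotated gene because the start it precedes is not the outermost one. Capitals mark 4 GC boxes and 2 copies of the core of the cyclic AMP response element (TGACG).
Hdac4: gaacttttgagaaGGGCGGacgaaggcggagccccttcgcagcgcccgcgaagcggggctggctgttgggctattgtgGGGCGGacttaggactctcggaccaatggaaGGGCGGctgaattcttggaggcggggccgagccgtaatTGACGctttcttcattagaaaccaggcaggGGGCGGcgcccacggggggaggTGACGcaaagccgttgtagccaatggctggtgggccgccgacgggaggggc
The MEF2 box of Hdac5 begins 20 bases before the start. Such a box was in 2.92% of the 32851 mouse promoters searched over the same length, on both strands. It was in this window of none of the other 9 promoters of the 6 genes searched. Camk2a was left out of this search and Camk2g had no listed promoter, so neither was examined. A GC box was in 32.7% of all promoters, and here also in those of Camk2b (3 boxes), Camk2d (3 boxes) and 1 of 4 for Hdac7, while the TGACG core was in 17.8%. The full cyclic AMP response element (1.55% of all promoters) and the CArG box (1.47%), the site of serum response factor, were found in none of the 10. GC boxes were counted with overlaps, and a TGACG core also lies within each full element. These matches describe letters in the sequence and not binding.

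Hdac4, the class IIa member known for its induction in denervated muscle, had its largest difference between the diets after exercise. Its levels were 7.28, 8.20, 6.72 and 5.35 FPKM in CON-pre and 6.09, 6.83, 5.84 and 4.79 FPKM in HFD-pre. In the post groups they were 9.46, 7.60, 7.88 and 9.34 FPKM in CON-post and 5.89, 6.95, 6.02 and 5.11 FPKM in HFD-post. Every HFD-post library was below every CON-post library, as for 1.28% of all genes, while the pre groups overlapped. HFD-post against CON-post gave a log2 fold change of -0.48 (standard error 0.129, 95% interval -0.76 to -0.21), a ratio of 0.715, which did not pass the threshold (limma adjusted p = 0.248). The two-sided exact permutation p was 0.0286, and 0.229 after adjustment over the 32 tests.

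Over both states Hdac4 differed by -0.34 between HFD and CON (95% interval -0.54 to -0.15, limma adjusted p = 0.103). Of the 8 CON libraries 6 were above every HFD library, a split that was not counted over all genes. Without CON-pre replicate 4, the lowest CON library, the difference over both states was -0.40 with a limma adjusted p of 0.0352, which passed the threshold. This was the 1 passing setting of 27 alternatives, and without CON-pre replicate 1 the limma adjusted p was 0.204. Before exercise the difference was -0.20 (95% interval -0.48 to 0.07, limma adjusted p = 0.746); it was -0.31 without CON-pre replicate 4 and -0.12 when replicate 2 was left out of CON-pre, or replicate 4 of HFD-pre. CON-post against CON-pre gave 0.31 (95% interval 0.03 to 0.58, limma adjusted p = 0.383; exact permutation p = 0.0857), which was 0.20 without CON-pre replicate 4. HFD-post against HFD-pre gave 0.03 (95% interval -0.25 to 0.30, limma adjusted p = 0.960). That the exercise response of Hdac4 differed between the diets was not shown, as its interaction was -0.28 with a 95% interval of -0.67 to 0.11 (limma adjusted p = 1.000) and was -0.17 without CON-pre replicate 4. Of the 6 adipocyte markers 1 (Lep) was called higher in HFD over both states, and of the 6 tested Schwann and nerve markers 0 were called by limma, also at an unadjusted p under 0.05. The skeletal muscle markers summed to 65342 to 81455 FPKM in CON and 56609 to 70904 FPKM in HFD libraries, with 0 of 8 called by limma and 6 lower at an unadjusted p under 0.05. The slow-fibre markers were lower in HFD in 7 of 7 and the macrophage markers in 6 of 6 over both states, with median log2 fold changes of -0.46 and -0.22 and 0 called by limma in either list, also at an unadjusted p under 0.05. With a slow-fibre score as a covariate Hdac4 differed by -0.35 over both states (limma adjusted p = 0.103) and by -0.49 after exercise (limma adjusted p = 0.212). The part of the other markers in the Hdac4 values was not tested.

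**Figure D4:**
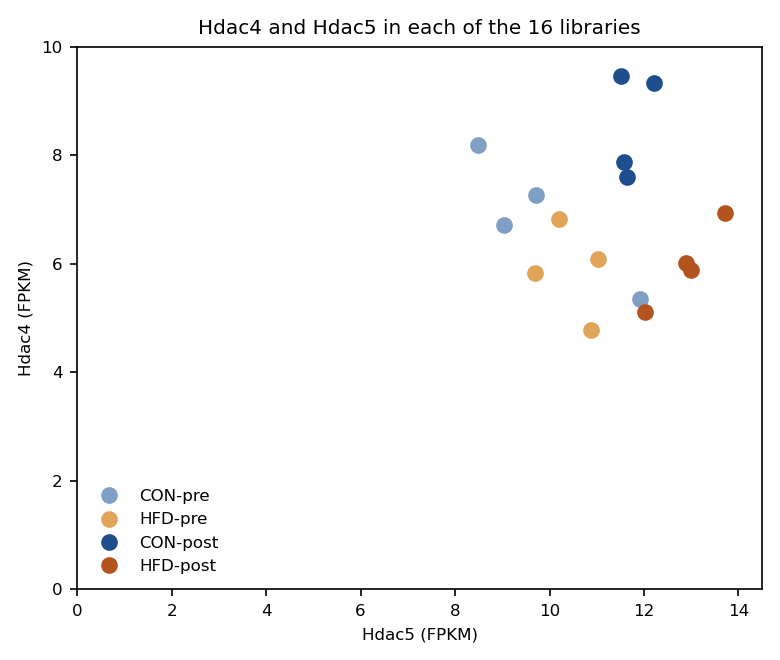
Hdac4 against Hdac5 (FPKM, both axes from 0), 1 point per library. The CON-post libraries lie at the upper right, the HFD-post libraries at lower Hdac4 (5.11 to 6.95 FPKM) and 12.0 to 13.7 FPKM of Hdac5, and CON-pre replicate 4, at 11.9 FPKM of Hdac5 and 5.35 FPKM of Hdac4, beside the HFD-post libraries.

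Hdac7, a class IIa member with a known role in endothelial cells, and Hdac9 were not called by limma in any of the 7 contrasts and did not reach an unadjusted p under 0.05. Hdac7 was 3.55 ± 0.600 FPKM (SD, n = 4) in CON-pre, 3.42 ± 0.957 in HFD-pre, 3.97 ± 0.652 in CON-post and 4.04 ± 0.261 in HFD-post. Within HFD-pre the libraries were split, with 4.22 and 4.27 FPKM in replicates 1 and 4 and 2.50 and 2.69 FPKM in replicates 2 and 3. Over both diets its log2 fold change after exercise was 0.19 (95% interval -0.04 to 0.43, limma adjusted p = 0.377). The sums of the endothelial markers went with Hdac7 in some groups and not in others. In both CON groups the library with the highest Hdac7 had the highest sum and that with the lowest Hdac7 the lowest (CON-pre replicates 3 and 2, 82.8 and 67.3 FPKM; CON-post replicates 3 and 1, 102 and 75.1 FPKM). HFD-pre had the same split, with 89.4 and 90.4 FPKM in replicates 1 and 4 and 80.0 and 75.3 FPKM in replicates 2 and 3. HFD-post ran the other way, since replicate 1 had the highest sum (91.2 FPKM) with the lowest Hdac7 (3.66 FPKM) and replicate 3 the lowest sum (80.2 FPKM) with the highest Hdac7 (4.26 FPKM). The part of these cells was not tested. Hdac7 overlaps Slc48a1 (16.1 FPKM) on chromosome 15 in RefSeq, and since the setting for strand in the expression estimate is not given in the sources used here, its level is uncertain.

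Hdac9, which is made as a full form and as a shorter form without the deacetylase domain, was 0.822 ± 0.159 FPKM in CON-pre, 0.941 ± 0.288 in HFD-pre, 0.934 ± 0.392 in CON-post and 0.781 ± 0.161 in HFD-post. Its forms cannot be told apart in a value per gene. The highest value, 1.51 FPKM in CON-post replicate 3, and the lowest, 0.534 FPKM in HFD-pre replicate 2, both lay away from the rest of their groups. The intervals of its log2 fold changes were wide, from -0.55 to 0.24 for HFD-post against HFD-pre and from -0.30 to 0.48 for CON-post against CON-pre.

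Among the CaMKII genes Camk2a had the largest difference with exercise, downwards and short of the threshold. Its levels were 115, 112, 105 and 103 FPKM in CON-pre and 102, 118, 103 and 92.1 FPKM in HFD-pre. After exercise they were 88.2, 101, 93.7 and 101 FPKM in CON-post and 75.7, 94.7, 94.9 and 99.0 FPKM in HFD-post. Every CON-post library was below every CON-pre library, as for 2.53% of all genes, and the HFD groups overlapped. Over both diets the log2 fold change was -0.18 (standard error 0.064, 95% interval -0.32 to -0.05, limma adjusted p = 0.127). With quantile normalization it was -0.24 and passed the threshold (limma adjusted p = 0.0328), the 1 passing setting of 27 alternatives. Without HFD-pre replicate 2 the limma adjusted p was 0.231.

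By diet the Camk2a difference was -0.18 for CON-post against CON-pre (95% interval -0.37 to 0.01, limma adjusted p = 0.489). Its exact permutation p was 0.0286, and 0.229 after adjustment over the 32 tests. It was -0.19 for HFD-post against HFD-pre (95% interval -0.38 to -0.00, limma adjusted p = 0.422; exact permutation p = 0.143), and -0.11 without HFD-post replicate 1 or -0.13 without HFD-pre replicate 2. The lowest Camk2a library, HFD-post replicate 1, also had the lowest sum of skeletal muscle markers, 56609 FPKM, and that sum was 63544 to 81455 FPKM in the pre groups and up to 75007 FPKM in the post groups; the part of this in Camk2a was not tested. The diets differed in Camk2a by -0.07 before exercise (95% interval -0.26 to 0.12) and -0.08 after it (95% interval -0.27 to 0.11). The second rested on HFD-post replicate 1, without which it was 0.00, and the first was -0.13 without HFD-pre replicate 2 and -0.01 without HFD-pre replicate 4.

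Camk2g, a broadly expressed isoform, was 40.7, 40.7, 40.6 and 42.7 FPKM in CON-pre and 39.3, 37.1, 38.9 and 40.0 FPKM in HFD-pre. After exercise it was 40.5, 39.5, 38.8 and 41.5 FPKM in CON-post and 39.0, 44.8, 42.4 and 42.0 FPKM in HFD-post. Every HFD-pre library was below every CON-pre library, as for 3.94% of all genes, and the post groups overlapped. The difference before exercise was small, at -0.08 on the log2 scale (95% interval -0.20 to 0.03, limma adjusted p = 0.759). Its exact permutation p was 0.0286, and 0.229 after adjustment over the 32 tests. With median-of-ratios scaling the difference before exercise was -0.04 (limma adjusted p = 0.912). HFD-post against HFD-pre gave 0.11 (95% interval -0.00 to 0.23, limma adjusted p = 0.439), or 0.05 with quantile normalization (limma adjusted p = 0.755), CON-post against CON-pre -0.04 (95% interval -0.16 to 0.08), and the interaction was 0.15 (95% interval -0.01 to 0.32, limma adjusted p = 1.000).

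Camk2b, the isoform that binds actin filaments in neurons, and Camk2d, the main isoform of the heart, overlapped between the groups in all 4 contrasts of 2 groups. Camk2b was 32.6 ± 2.15 FPKM in CON-pre, 34.7 ± 2.72 in HFD-pre, 33.1 ± 1.15 in CON-post and 33.9 ± 2.25 in HFD-post, and over both diets its log2 fold change after exercise was -0.00 (95% interval -0.11 to 0.10). Camk2d was 12.0 ± 0.904 FPKM in CON-pre, 11.3 ± 0.657 in HFD-pre, 10.7 ± 1.42 in CON-post and 10.7 ± 1.37 in HFD-post. Over both diets it differed by -0.12 after exercise (95% interval -0.27 to 0.02, limma adjusted p = 0.367), and 5 of the 8 post libraries were below every pre library. This split was not counted over all genes.

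The genes around the 8 were read from 7 lists: activators and inhibitors of CaM kinases, other kinases of class IIa HDACs, 14-3-3 proteins with export and phosphatase genes, corepressor partners, the remaining zinc-dependent HDACs, MEF2 with its cofactors, and target genes. Between the diets, 0 of the 58 tested genes of these lists were called by limma, with an unadjusted p under 0.05 for 9 before exercise (8.25% of all genes), 4 after it (6.29%) and 10 over both states (10.4%). Over both diets after exercise, 5 were called higher and 1 lower, of 58 tested, beside 2.95% of all genes called higher and 0.915% lower.

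Of 14 other kinases of class IIa HDACs, 2 rose over both diets and 0 fell. Sik1, a salt-inducible kinase whose transcription is itself inducible, was 1.80 ± 0.167 FPKM in CON-pre, 1.67 ± 0.223 in HFD-pre, 5.14 ± 0.252 in CON-post and 4.15 ± 0.962 in HFD-post. Its log2 fold change was 1.19 (limma adjusted p = 2.03e-06), and it was called on CON (1.30, limma adjusted p = 6.51e-05) and on HFD (1.08, limma adjusted p = 8.25e-04). Sik3, of the same family, rose by 0.20 (limma adjusted p = 0.0495), a call that was kept in only 7 of 27 alternatives and was lost with upper-quartile scaling (limma adjusted p = 0.170). The most abundant kinases of the list were Stk11, the activator of AMP-activated protein kinase and the salt-inducible kinases, at 42.2 FPKM and Prkaa2, the main catalytic subunit of AMP-activated protein kinase in muscle, at 34.0 FPKM, with log2 fold changes of -0.02 and -0.07.

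Calm2 and Calm3, which encode calmodulin, the calcium sensor that switches on CaMKII, were not called. Of 7 tested genes of their list (of 11) 0 passed in either direction by limma and 3 had an unadjusted p under 0.05. Calm3 (108 FPKM) and Calm2 (64.5 FPKM) had log2 fold changes of -0.15 and -0.22 with limma adjusted p-values of 0.204 and 0.162. Of the 12 genes for 14-3-3 proteins, nuclear export and phosphatase, 1 rose and 0 fell. That one, Ppp2ca, a catalytic subunit of protein phosphatase 2A, which removes phosphate from class IIa HDACs, was 55.1 ± 3.30 FPKM in CON-pre, 60.3 ± 1.98 in HFD-pre, 68.1 ± 2.47 in CON-post and 65.8 ± 3.42 in HFD-post. Its log2 fold change was 0.21 over both diets (limma adjusted p = 0.00815) and 0.30 on CON (limma adjusted p = 0.0127), and these were kept in 25 of 27 and 22 of 28 alternatives. The first was lost with upper-quartile scaling (limma adjusted p = 0.0678) and quantile normalization (0.0931), and the second also without CON-pre replicate 1 (limma adjusted p = 0.0562) or 3 (0.0518). The 14-3-3 gene Ywhae, at 150 FPKM the most abundant of that list, had a log2 fold change of -0.13 (limma adjusted p = 0.176).

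Of the 5 corepressor partners counted, 0 were called by limma, also at an unadjusted p under 0.05. Hdac3, the deacetylase of the complex, averaged 22.2 FPKM with a log2 fold change of -0.01, and Gps2 and Ncor1, further subunits, averaged 18.1 and 15.2 FPKM with 0.02 and -0.01. Of the 6 remaining zinc-dependent HDAC genes 0 were called by limma and 1 had an unadjusted p under 0.05. Hdac2, a class I enzyme, averaged 21.6 FPKM with a log2 fold change of -0.07, and Hdac11 2.51 FPKM with -0.34 (limma adjusted p = 0.0752).

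Of 5 tested genes for MEF2 and its cofactors (of 7), 0 rose and 1 fell. Mef2c, a MEF2 factor of muscle, was 102 ± 2.99 FPKM in CON-pre, 99.2 ± 3.12 in HFD-pre, 85.3 ± 5.72 in CON-post and 90.8 ± 5.89 in HFD-post (log2 fold change -0.20, limma adjusted p = 0.0199). That call was kept in 26 of 27 alternatives, with an adjusted p of 0.0525 without CON-pre replicate 1. Mef2d, at 32.2 FPKM, and Mef2a, at 28.4 FPKM, both had a log2 fold change of 0.05.

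Of 9 target genes, 2 rose and 0 fell. Ppargc1a, the coactivator of mitochondrial biogenesis, was 6.60 ± 0.365 FPKM in CON-pre, 4.69 ± 0.344 in HFD-pre, 28.3 ± 7.998 in CON-post and 22.3 ± 5.40 in HFD-post, a 4.11-fold rise over both diets (log2 fold change 2.04, limma adjusted p = 2.63e-07). Jun, a subunit of the AP-1 transcription factor, was 15.0 ± 6.58 FPKM in CON-pre, 14.1 ± 3.56 in HFD-pre, 35.3 ± 6.56 in CON-post and 27.0 ± 2.93 in HFD-post, with a log2 fold change of 1.11 (limma adjusted p = 7.62e-04). Both log2 fold changes were larger than that of any of the 8 HDAC and CaMKII genes, whose largest was 0.28. The oxygen carrier Mb, the glucose transporter Slc2a4 and Myoz2, a protein of the Z-disc, had log2 fold changes of 0.18, 0.09 and 0.38, all with limma adjusted p-values over 0.05.

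**Figure D5:**
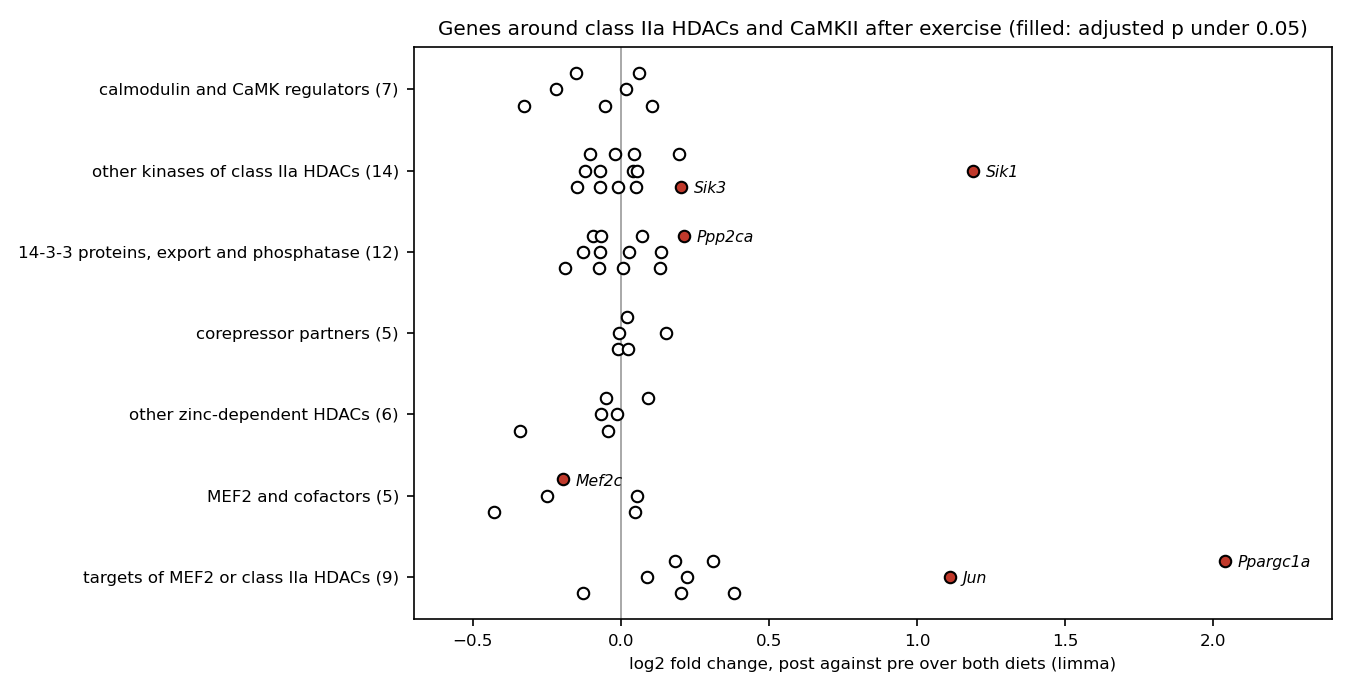
Log2 fold change over both diets, post against pre (horizontal axis), of each tested gene in the 7 lists, with the number tested in brackets. Filled and named points have an adjusted p under 0.05: Sik1, Sik3, Ppp2ca, Jun and Ppargc1a to the right of 0 and Mef2c to the left.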

How the data were processed

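RNA sequencing of mouse quadriceps, 16 libraries in 4 groups of 4, was analysed from a table of expression values. According to the Methods and the labels, the authors prepared stranded mRNA libraries, used TopHat for alignment and Cufflinks for expression levels. The table the authors deposited gives FPKM, which carry no counts, so no count model was used and the Cufflinks comparison of reads could not be repeated. The authors name mm9, but 692 of 692 loci that the study lists overlapped genes of GRCm38 and 114 those of mm9, so positions are from RefSeq GRCm38.p6.

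Of 24487 entries, 27 named only by a number were left out (0.0771% of FPKM) and those sharing a symbol were summed (260 symbols). Columns not used numbered 0. Levels were tested as log2(FPKM + 0.5) with limma 3.58.1 (R 4.3.3, statmod 1.5.0), with a mean-variance trend, in a single model of the 4 groups without covariates, over symbols with a mean of 0.5 FPKM or more, and adjusted by Benjamini-Hochberg over all of them. Single genes were also compared by exact two-sided permutation tests. The paper's captions give n = 4 muscles per group. Neither they nor the labels say that each library came from its own mouse. The p-values therefore measure only the spread between these samples, which may be technical or between muscles of the same mouse. Exact tests and figures used scipy 1.17.1 and matplotlib 3.10.9 in Python 3.11.15 (numpy 2.4.6, pandas 2.3.3), and the code was tested on simulated data.

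The 8 genes, the gene lists and the tests were chosen with earlier results of these data known. All 8 genes are named; of the lists, the text names genes called in any contrast and up to 3 of the highest mean FPKM. Results for 3 genes are not reported here, and those of them that belong to a list are left out of its counts. Tnni1 is in both the target and the slow-fibre list. Alternatives were pseudocounts of 0.1 and 1, no filter, a mean of 1 FPKM or more, quantile, upper-quartile and median-of-ratios scaling, no trend, array weights, a model of just the groups compared, a replicate block, a slow-fibre score as a covariate, looser thresholds and leaving out each library; applying them to the pathway genes was added after the data had been seen.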

Additional observations from a re-analysis of the deposited data

Results flagged for a closer look

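Camk2g in CON-pre replicate 4 was 42.7 FPKM, against 40.6 to 40.7 FPKM in the other CON-pre libraries, so its distance to the nearest of them was 0.969 of the range of the group, above Dixon's critical value at the 95% level for 4 samples. Of 32 groups of values examined for the 8 genes (8 genes in 4 groups) this was the one that passed, and chance alone passes about 1 in 20. The excess over the other libraries was small beside the level of the gene, and the HFD-pre libraries (37.1 to 40.0 FPKM) lay below all 4 CON-pre libraries with or without it.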

How the results depend on the processing

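Over 27 or 28 alternatives per contrast, 19 of the 56 log2 fold changes of the 8 genes changed sign under at least 1, all of them at most 0.14 in size and with a 95% interval that held 0, so their direction is not settled. Hdac5 over both diets kept its call in all of them (log2 fold change 0.23 to 0.32). The number of the 8 genes called was 0 to 1 when a library was left out of CON-post against CON-pre and of HFD against CON over both states, the 1 arising without CON-pre replicate 4 (Hdac5 and Hdac4). It stayed at 1 for post against pre over both diets and at 0 for the interaction, HFD-post against CON-post, HFD-pre against CON-pre and, on HFD, post against pre. Quantile normalization gave 2 calls in place of 1 for post against pre over both diets. At an unadjusted p under 0.05 the counts were 2 for CON-post against CON-pre, 2 for HFD-post against HFD-pre, 1 for HFD-post against CON-post, 2 for post against pre over both diets and 1 for HFD against CON over both states. The causes were not tested.

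Samples with the same replicate number did not deviate together (correlations -0.220 to 0.213, median -0.02, in 24 pairs), so the numbers do not pair the libraries. With a replicate block the counts were 1 for post against pre over both diets and 0 for the other contrasts, as without it, and Hdac5 had a limma adjusted p of 0.0354. Hdac9 drops out when a mean of 1 FPKM is required. Depth is known only in relative terms.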

Other observations

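The genes whose FPKM followed each of the 8 most closely over the 16 libraries, out of all genes tested, were the following, by Pearson's r as a description; the libraries share groups and the genes were picked as the highest of many. Camk2a was closest to Tmod1 (r = 0.95) and Phkg1 (r = 0.95), a cap protein of the thin filament and the muscle catalytic subunit of phosphorylase kinase. Hdac5 was closest to the water channel Aqp1 (r = 0.91). Camk2d was closest to Psd3 (r = 0.88) and Ibtk (r = 0.86), Hdac7 to Kctd12 (r = 0.85) and Rgs2 (r = 0.82), Camk2g to Cyb561d2 (r = 0.83) and Sympk (r = 0.81), and Camk2b to Ptov1 (r = 0.83) and Zfp334 (r = 0.82). The closest genes to Hdac9 were Zfp800 (r = 0.77) and Myo1e (r = 0.75), and those to Hdac4 were Trp63 (r = 0.77) and Spag5 (r = 0.74).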
